A study of Mus musculus with 17 samples.

Results

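The 9 genes described here encode the Notch signaling components that were followed across murine splenic dendritic cells: the receptors Notch1, Notch2 and Notch4, the ligands Dll1, Dll4, Jag1 and Jag2, the nuclear effector Rbpj and the target Hes1. They were taken by name, with no threshold on a measured value, and all 9 were found among the 31091 gene identifiers of the count table. Bulk polyadenylated RNA was sequenced in 17 samples of type 1 and type 2 conventional dendritic cells (cDC1s and cDC2s). The cells came from spleens of female C57BL/6JRj mice aged 8 weeks that carried a B16-FLT3L melanoma, a tumor that secretes the dendritic cell growth factor FLT3L and expands these cells, and spleens of several mice were pooled in each experiment. CD11c+ cells were cultured for 6 h in the presence of GM-CSF with medium of TC-1 cells, a murine lung carcinoma line, and were then sorted on surface markers (XCR1 and CD8α for cDC1s, SIRPα and CD11b for cDC2s). In the WT groups the medium came from unmodified live TC-1 cells. In the BimS groups it came from TC-1-iBimS cells dying by apoptosis, and in the RIPK3 groups from TC-1-iRIPK3 cells dying by necroptosis. Each inducible line is a single clone with a transgene under a cumate switch, and all 3 cultures, WT included, had received cumate for 24 h. The medium was added without centrifugation, so that debris below stands for dead cells together with soluble material. The parts of debris, soluble material and cell line in a difference from WT cannot be told apart. Every group had 3 samples except cDC2s with RIPK3 debris, which had 2. The labels number the replicates but do not say whether they were separate cultures or animals, so that p-values measure the spread between these samples only.

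Notch signaling links neighboring cells. A ligand of the Delta-like (Dll) or Jagged (Jag) family on a cell binds a Notch receptor on the next, the receptor is cut by ADAM10 and then by the γ-secretase complex, and the freed intracellular domain enters the nucleus, where it joins the DNA-binding protein RBPJ and Mastermind co-activators to switch on targets such as Hes1. In the spleen, Notch2 is known for its role in the ESAM-high subset of cDC2s, and dendritic cells present Notch ligands to T cells. RNA levels of receptors and ligands do not measure whether the pathway is active.

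The total count per sample lay between 16095159 and 21645289. Levels are given as CPM, read counts divided by the TMM-scaled size of their library, and genes are compared with each other only as CPM per kb of their canonical transcript. The sort was checked on marker genes. The summed level of 9 cDC1 markers was 1412 to 1739 CPM in the cDC1 samples and 99.0 to 132 CPM in the cDC2 samples, and the sum of 6 cDC2 markers was 2.11 to 4.07 CPM in cDC1s and 287 to 380 CPM in cDC2s. Because the sorted samples are bulk, fewer cells of a kind and less RNA per cell cannot be told apart.

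In the reference genome GRCm39, Jag1 lies on the minus strand at chr2:136923373-136958693 and Hes1 on the plus strand at chr16:29882134-29886643. The 250 bases before the start of the canonical transcript of both genes are shown because Jag1 was the member with the largest change between media and Hes1 is the textbook target of RBPJ, whose core binding motif is TGGGAA (searched on both strands). Capitals mark that motif.
Hes1 promoter, chr16:29883877-29884126, plus strand: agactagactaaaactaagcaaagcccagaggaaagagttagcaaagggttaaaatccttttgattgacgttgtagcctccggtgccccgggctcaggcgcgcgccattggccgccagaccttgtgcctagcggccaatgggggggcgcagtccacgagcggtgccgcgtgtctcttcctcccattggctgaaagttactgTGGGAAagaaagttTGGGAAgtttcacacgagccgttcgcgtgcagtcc
Jag1 promoter, chr2:136958694-136958943, minus strand: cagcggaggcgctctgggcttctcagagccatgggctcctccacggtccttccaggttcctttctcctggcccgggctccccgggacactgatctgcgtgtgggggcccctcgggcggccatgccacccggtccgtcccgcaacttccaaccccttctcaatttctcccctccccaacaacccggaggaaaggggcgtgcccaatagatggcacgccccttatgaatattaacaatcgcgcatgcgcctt
The Hes1 window held the motif in 2 places, 49 to 44 and 35 to 30 bases before the start. The Rbpj window held it in 1 place, on the minus strand, and the windows of the other 7 members, Jag1 included, did not contain these letters. TGGGAA was present in 22.7% of 21770 windows of the same length before protein-coding genes. A match of letters is no measurement of binding.

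Between media, the members moved in few comparisons, and Jag1 stood out in each cell type. In cDC1s, 3 of the 9 genes changed with BimS debris (Jag1 rose, Jag2 and Notch2 fell), where 13.2% of the 19513 tested genes passed the threshold (adjusted p under 0.05, edgeR), 7.31% upward and 5.89% downward. With RIPK3 debris 5 of 9 changed in cDC1s (Jag1, Hes1 and Rbpj rose, Jag2 and Notch2 fell), beside 16.5% of all genes (8.34% upward, 8.19% downward). In cDC2s only Jag1 changed, upward with BimS debris (7.01% of 19239 genes, 3.8% upward and 3.21% downward) and with RIPK3 debris (7.21%, 3.93% upward and 3.28% downward). With the replicate block 1 member rose and 1 fell in each of these cDC2 comparisons, where 21.3% (BimS) and 21.4% (RIPK3) of all genes then passed, a share near that of the members. Between RIPK3 and BimS debris, edgeR called none of the 9 in cDC1s (4.15% of all genes, 1.94% upward and 2.21% downward) or in cDC2s (0.379%, 0.161% upward and 0.218% downward), and with the replicate block 3 fell in cDC2s, where 14.3% of all genes then passed. There 2 members in cDC1s (Jag1 and Hes1) and 1 in cDC2s (Jag1) had an unadjusted p under the threshold, and DESeq2 and limma also called 0. Comparisons of BimS and of RIPK3 debris with WT share their WT samples and are therefore given side by side, without a measure of their likeness. All 9 members passed the filter on detection in each fit. The study singled out Notch1 and Notch4 as higher in cDC1s with necroptotic debris and listed Jag1 for cDC2s with apoptotic debris. It used these same samples, so that the direction of the 3 genes here is not independent evidence. Its threshold was an unadjusted p under 0.05. With the adjusted p used here, the main fit called neither Notch1 nor Notch4 between media in cDC1s.

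**Figure D1:**
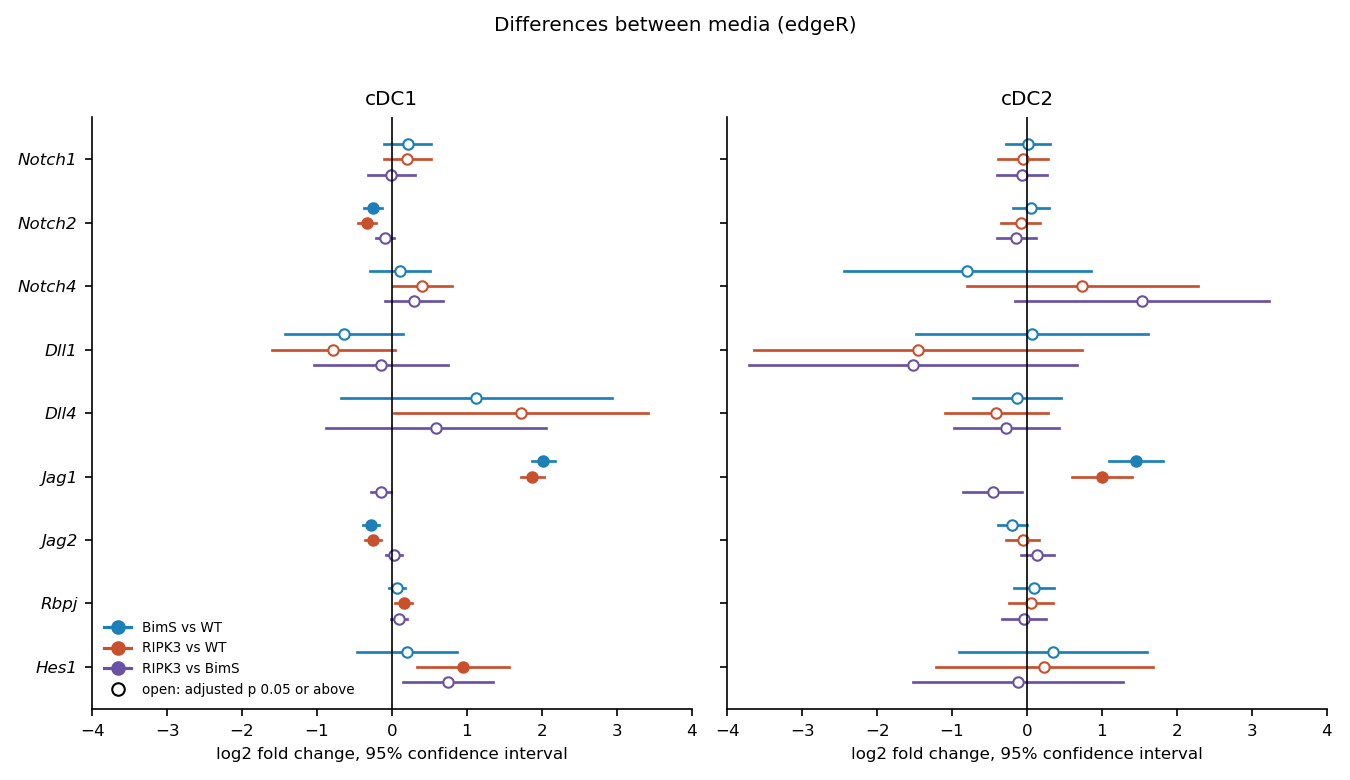
Log2 fold changes (horizontal axis) of the 9 Notch genes (vertical axis) between media in cDC1s (left) and cDC2s (right), with 95% confidence intervals from edgeR as lines and open points for an adjusted p of 0.05 or above. The intervals of Jag1 against WT lie far to the right of 0 in both cell types, whereas those of Dll4 in cDC1s and of Dll1, Notch4 and Hes1 in cDC2s are the widest and include 0 in most comparisons.

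Among the ligands, Jag1, which encodes Jagged-1, was higher with medium of dying cells than with WT medium in each cell type. In cDC1s its level was 11.7, 12.6 and 11.7 CPM with WT medium, 50.3, 46.7 and 49.1 CPM with BimS debris, and 46.7, 43.0 and 42.1 CPM with RIPK3 debris. All 6 samples with debris lay above the 3 with WT medium, and the BimS and RIPK3 samples overlapped. Groups without overlap were found in cDC1s for 29.5% of all genes with BimS and 29.9% with RIPK3 debris against WT. The rise was 4.06-fold with BimS (log2 fold change 2.02 ± 0.07 SE, adjusted p = 9.36e-22) and 3.67-fold with RIPK3 debris (1.88 ± 0.07, adjusted p = 1.03e-20). The log2 difference between RIPK3 and BimS debris, -0.15 with a 95% interval from -0.28 to -0.02, did not pass the threshold after adjustment (adjusted p = 0.244).

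In cDC2s, Jag1 stood at 14.6, 11.8 and 9.44 CPM with WT medium, at 40.6, 29.3 and 28.9 CPM with BimS debris, and at 26.1 and 22.2 CPM with RIPK3 debris. These 3 groups did not overlap, and the order was BimS, RIPK3, WT. Such separation is common in cDC2s at these group sizes: it was seen for 23% of all genes with BimS against WT, for 34.1% with RIPK3 against WT and for 26.8% with RIPK3 against BimS. Jag1 rose 2.75-fold with BimS (log2 fold change 1.46 ± 0.17 SE, adjusted p = 8.7e-05) and 2.00-fold with RIPK3 debris (1.00 ± 0.19, adjusted p = 0.00408). Without RIPK3 replicate 1, the latter difference was 0.88 on the log2 scale with an adjusted p of 0.0607, the lone remaining RIPK3 sample being assumed to vary like the other groups. RIPK3 and BimS debris differed by -0.46 ± 0.18 on the log2 scale (adjusted p = 0.495). With the replicate number as a block, which pairs the cDC2 samples, this difference was -0.56 and passed the threshold (adjusted p = 9.43e-09).

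The rise of Jag1 with RIPK3 debris was larger in cDC1s than in cDC2s, by 0.87 ± 0.20 on the log2 scale (interaction, adjusted p = 0.0278). For this interaction 2 members had an unadjusted p under the threshold, Jag1 and Dll4. Dll4, with few reads, differed by 2.11 ± 0.85 (unadjusted p = 0.0185, adjusted p = 0.394). Only Jag1 was called, where 1.14% of 19082 genes were. The call was lost (adjusted p up to 0.224) on leaving out any of the 3 cDC1 WT, any of the 3 cDC1 RIPK3, cDC2 WT replicate 1 or 2, or cDC2 RIPK3 replicate 2 samples, while the difference itself stayed between 0.69 and 1.01. The response of Jag1 to BimS debris differed by 0.56 ± 0.18 (adjusted p = 0.233), and edgeR called 0 of 9 members there (0.87% of all genes), with 2 at an unadjusted p under the threshold and 0 by DESeq2. With the replicate block (adjusted p = 0.0157) and with no filter on detection (adjusted p = 0.00714) the difference for Jag1 passed, at 0.56 in both. It also passed without cDC2 WT replicate 3 (0.70, adjusted p = 0.0384) and without cDC2 BimS replicate 1 (0.74, adjusted p = 0.0172). For RIPK3 against BimS debris no member differed between cell types (0.0314% of all genes called, 0 members at an unadjusted p under the threshold, 0 by DESeq2).

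Jag2, encoding Jagged-2, was the most abundant ligand in WT medium and went down in cDC1s. Its level in cDC1s was 126, 135 and 129 CPM with WT medium, 110, 109 and 102 CPM with BimS debris and 113, 110 and 104 CPM with RIPK3 debris. Every sample with debris lay below every WT sample. Separation from WT was seen for 29.5% (BimS) and 29.9% (RIPK3) of all genes in cDC1s. Jag2 fell by 0.28 on the log2 scale with BimS (SE 0.05, adjusted p = 1.64e-04) and by 0.25 with RIPK3 debris (SE 0.05, adjusted p = 4.09e-04), and the 2 debris groups differed by 0.02 (95% interval -0.08 to 0.13). In cDC2s the level was 30.9, 30.3 and 35.0 CPM with WT medium, 28.8, 28.6 and 26.9 CPM with BimS debris, and 31.8 and 30.4 CPM with RIPK3 debris. The BimS samples were below the WT samples here too (no overlap was found for 23% of all genes), but the difference of -0.19 did not pass the threshold (adjusted p = 0.282). With the replicate block it did, at -0.19 (adjusted p = 0.028). RIPK3 debris differed from WT by -0.06 (adjusted p = 0.868).

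**Figure D2:**
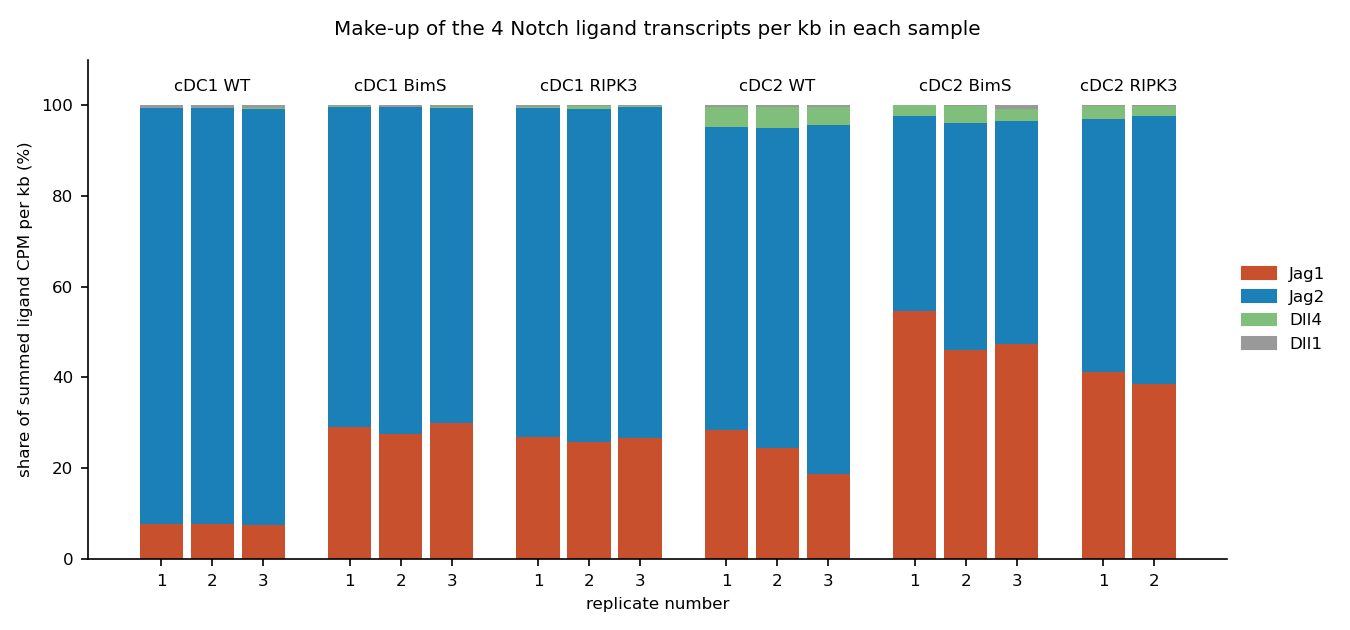
Share of each ligand (colors, %) in the summed CPM per kb of Dll1, Dll4, Jag1 and Jag2, with a bar for each sample and replicate numbers below. The Jag1 part is below 8% in each cDC1 WT sample and between 25.8% and 29.9% in each cDC1 sample with debris, and it reaches 54.6% in a cDC2 sample with BimS debris.

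The share of Jag1 among the ligand transcripts was higher with debris, with Jag1 up and Jag2 down in cDC1s and Jag1 alone called in cDC2s. Per kb of transcript, Jag1 made up 7.60% ± 0.14 (SD, n = 3) of the summed ligand level in cDC1s with WT medium, 28.8% ± 1.18 with BimS debris and 26.5% ± 0.56 with RIPK3 debris. In cDC2s its share was 23.9% ± 4.89, 49.3% ± 4.60 and 39.9% ± 1.77 (n = 2 for RIPK3). Jag2 held most of the remainder, 91.7% ± 0.06 in cDC1s with WT medium and 71.4% ± 5.13 in cDC2s with WT medium. The ratio of Jag2 to Jag1 per kb accordingly went from 12.1 ± 0.23 in cDC1s with WT medium to 2.45 ± 0.15 with BimS and 2.76 ± 0.07 with RIPK3 debris, and from 3.11 ± 0.91 in cDC2s to 0.97 ± 0.16 and 1.44 ± 0.12. In cDC2s with BimS debris alone the groups' mean levels of Jag1 (5.74 ± 1.16 CPM per kb) and Jag2 (5.44 ± 0.20) lay within their spread. The summed level of the 4 ligands was 27.4 ± 0.92 CPM per kb in cDC1s with WT medium, 29.4 ± 0.79 with BimS and 28.9 ± 1.37 with RIPK3 debris. In cDC2s it was 8.71 ± 0.33, 11.6 ± 1.24 and 10.5 ± 0.74. Shares and sums are descriptions of the single-gene tests above and were not tested separately.

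The Delta-like ligands, which in the thymus and spleen instruct lymphocyte fates, were close to the limit of detection. Dll1 had 4 to 17 reads in the cDC1 samples and 1 to 6 in the cDC2 samples, and Dll4 had 1 to 11 reads in cDC1s and 15 to 31 in cDC2s. In cDC1s, Dll1 was 0.70, 0.71 and 0.76 CPM with WT medium against 0.41, 0.47 and 0.52 with BimS debris, without overlap, as was the case for 29.5% of all genes. The change did not pass the threshold (log2 fold change -0.64 ± 0.39, adjusted p = 0.36), and the RIPK3 samples ranged from 0.23 to 0.66 CPM (-0.78 ± 0.40, adjusted p = 0.217). Dll4 in cDC1s differed between RIPK3 debris and WT by 1.72 ± 0.83 (unadjusted p = 0.0465, adjusted p = 0.181), with overlapping groups. In cDC2s Dll4 was 1.35 to 1.49 CPM with WT medium, 1.13 to 1.58 CPM with BimS and 0.88 to 1.29 CPM with RIPK3 debris, and no difference between media was detectable there at this depth. The gene body of Dll1 overlaps Fam120b on the opposite strand, which had a mean of 1691 counts. Whether strand was used in counting is not given in the sources used here, and its part in the Dll1 counts was not tested.

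**Figure D3:**
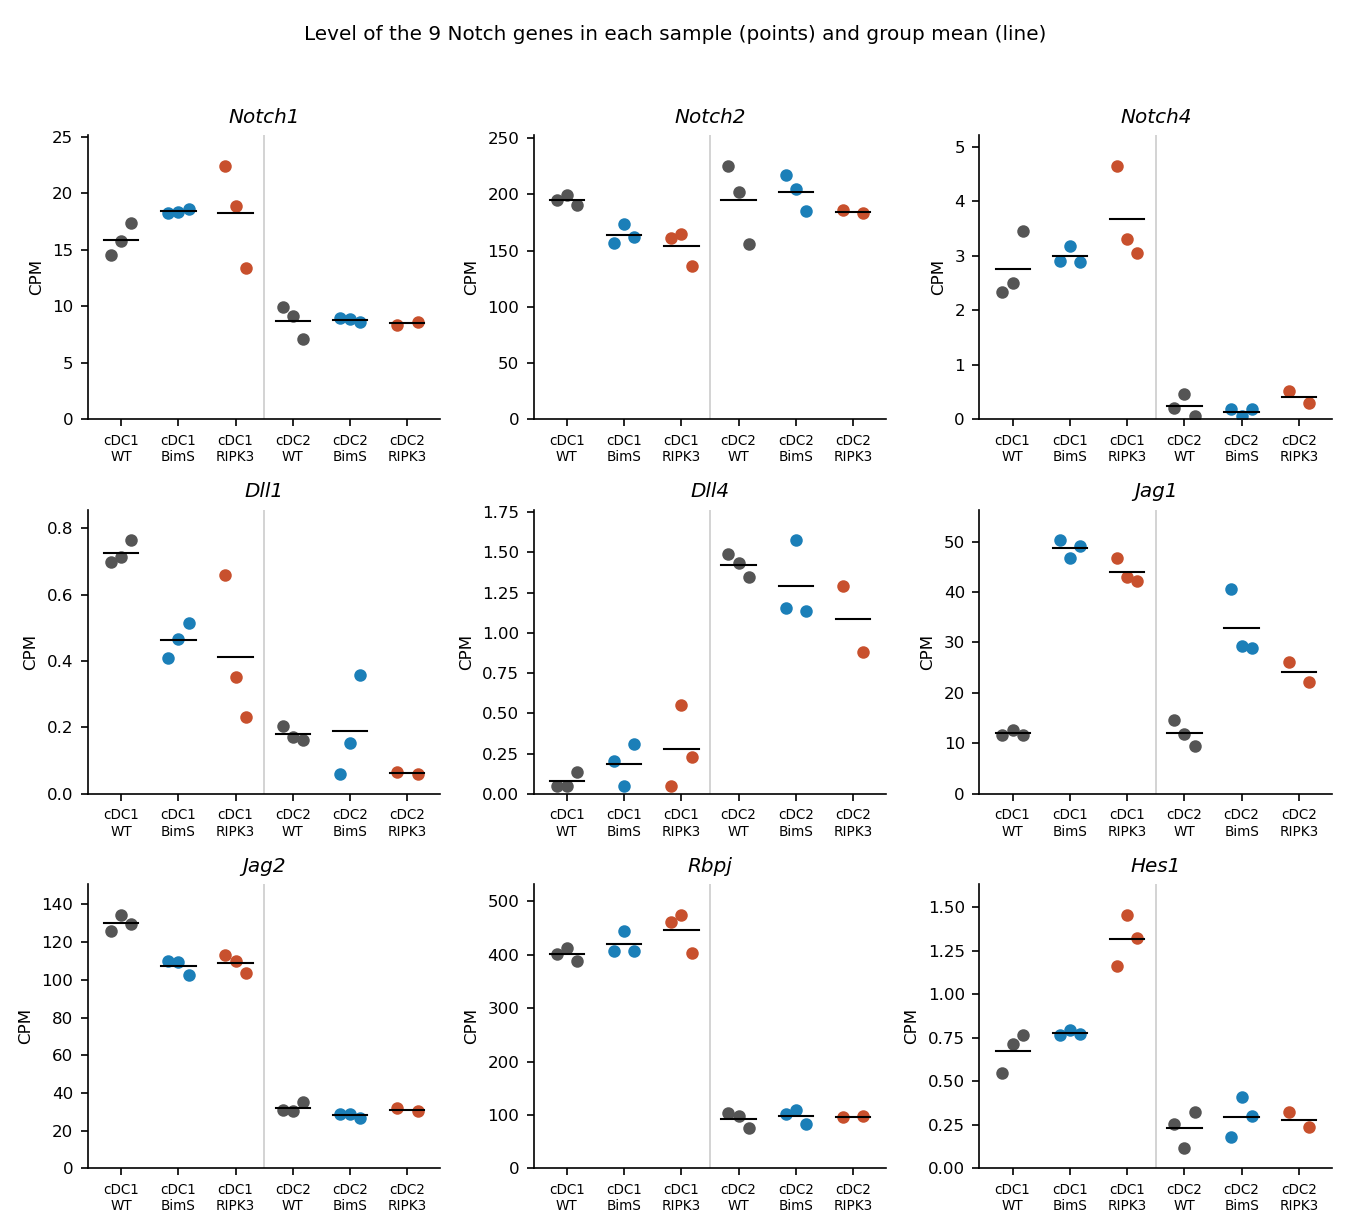
Level of each of the 9 Notch genes in CPM (vertical axes start at 0) in each of the 17 samples (points) by cell type and medium, with group means as lines. Jag1 separates the debris groups from WT in cDC1s and cDC2s, Jag2 and Notch2 lie lower with either debris in cDC1s, the cDC2 samples with BimS debris lie below the WT samples for Jag2, and Hes1 is highest in the 3 cDC1 samples with RIPK3 debris.

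Among the receptors, Notch2 was the main transcript in each cell type. In cDC1s it was 195, 199 and 190 CPM with WT medium, 156, 173 and 162 CPM with BimS debris, and 161, 165 and 136 CPM with RIPK3 debris. All samples with debris lay below the WT samples, where 29.5% (BimS) and 29.9% (RIPK3) of all genes showed no overlap with WT. Notch2 fell by 0.25 on the log2 scale with BimS (SE 0.06, adjusted p = 0.00261) and by 0.34 with RIPK3 debris (SE 0.06, adjusted p = 5.5e-05). When limma was applied to log2(count + 1) without normalization, the former was -0.29 and no longer passed (adjusted p = 0.0618). In cDC2s Notch2 spread widely within groups, with 226, 202 and 156 CPM in WT medium, 217, 205 and 185 CPM with BimS debris, and 186 and 183 CPM with RIPK3 debris. The groups overlapped, and the differences from WT of 0.05 with BimS and -0.09 with RIPK3 debris did not pass the threshold on the log2 scale (adjusted p of 0.866 and 0.809), nor did that of -0.14 between the debris groups (adjusted p = 0.807). With the replicate block, the differences of RIPK3 debris were -0.18 from WT (adjusted p = 0.00284) and -0.25 from BimS (adjusted p = 3.93e-05). The interaction did not pass for either debris (adjusted p of 0.549 and 0.684), so that the fall was not shown to differ between cDC1s and cDC2s.

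Notch1, the receptor best known for T-cell fate, was 14.5, 15.8 and 17.4 CPM in cDC1s with WT medium, 18.3, 18.4 and 18.6 CPM with BimS debris and 22.5, 18.9 and 13.4 CPM with RIPK3 debris. The RIPK3 samples spanned the range of the other groups, with replicate 1 as the highest and replicate 3 as the lowest of the 9. The log2 differences from WT were 0.21 ± 0.14 with BimS (adjusted p = 0.455) and 0.20 ± 0.14 with RIPK3 debris (adjusted p = 0.441). Without RIPK3 replicate 3 the latter was 0.37 and passed the threshold (adjusted p = 0.00182), so the absence of a call rests on that sample. In cDC2s Notch1 lay between 7.07 and 9.90 CPM in all 8 samples, and the 95% intervals of its log2 differences from WT ran from -0.28 to 0.31 (BimS) and from -0.38 to 0.28 (RIPK3).

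Notch4, a receptor known mainly from endothelium, was 2.34, 2.49 and 3.46 CPM in cDC1s with WT medium, 2.90, 3.18 and 2.89 CPM with BimS and 4.65, 3.31 and 3.05 CPM with RIPK3 debris. A single RIPK3 sample stood above the rest, and the groups overlapped. The log2 difference between RIPK3 debris and WT was 0.41 ± 0.19, with an unadjusted p of 0.0416 and an adjusted p of 0.167. In cDC2s Notch4 had 1 to 8 reads per sample, too few to show a difference between media. Notch1, Notch2 and Notch4 together gave 20.6 ± 0.32 CPM per kb in cDC1s with WT medium, 17.9 ± 0.85 with BimS and 17.1 ± 2.02 with RIPK3 debris, and Notch2 held 89.8% ± 1.21, 86.6% ± 0.49 and 85.6% ± 2.11 of it. In cDC2s Notch2 held 94.8% to 95.3% on average in all 3 media.

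Rbpj, which encodes the DNA-binding partner of all Notch receptors, had the highest level of the 9 genes in cDC1s. It was 402, 413 and 389 CPM with WT medium, 407, 444 and 407 CPM with BimS debris and 462, 475 and 404 CPM with RIPK3 debris. RIPK3 replicate 3 lay within the WT range and the other 2 above it. The rise with RIPK3 debris was small, at 0.16 ± 0.05 on the log2 scale (adjusted p = 0.0403). It did not pass with DESeq2 (adjusted p = 0.0555), nor with limma on log2(count + 1) without normalization, nor without WT replicate 1 or 3 or RIPK3 replicate 1 or 2 (adjusted p from 0.0976 to 0.272). With BimS debris the difference was 0.06 ± 0.05 (adjusted p = 0.548). RIPK3 and BimS debris differed by 0.09 ± 0.05 (adjusted p = 0.439), and by 0.16 without RIPK3 replicate 3 (adjusted p = 0.0192). In cDC2s Rbpj ranged from 75.1 to 110 CPM with overlapping groups, and neither debris group differed from WT (adjusted p of 0.778 and 0.906). RIPK3 and BimS debris differed there by -0.04 (adjusted p = 0.962), and by -0.16 with the replicate block (adjusted p = 0.0372).

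Hes1, a transcriptional repressor and the classic target of Notch, was expressed at a low level. In cDC1s it was 0.55, 0.71 and 0.76 CPM with WT medium, 0.76, 0.79 and 0.77 CPM with BimS debris and 1.16, 1.46 and 1.32 CPM with RIPK3 debris. The 3 RIPK3 samples lay above the other 6, with 23 to 29 reads against 11 to 17. Groups without overlap were found for 29.9% of all genes between RIPK3 debris and WT and for 19.2% between RIPK3 and BimS debris. Hes1 was 1.93-fold higher with RIPK3 debris than with WT medium (log2 fold change 0.95 ± 0.30, adjusted p = 0.0247). It did not pass with DESeq2 (adjusted p = 0.0646), nor with limma on log2(count + 1) without normalization (adjusted p = 0.093), nor without WT replicate 1 or 2 or RIPK3 replicate 2 or 3 (adjusted p from 0.0533 to 0.118). Against BimS debris it was higher by 0.75 ± 0.30 (unadjusted p = 0.0158, adjusted p = 0.176), and BimS differed from WT by 0.20 ± 0.33 (adjusted p = 0.814). In cDC2s Hes1 had 2 to 8 reads per sample and no difference was detectable at this depth, as the interval of the difference between RIPK3 debris and WT, from -1.21 to 1.68 on the log2 scale, shows.

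The 9 genes were also compared between the cell types. In the fit of both cell types that included the medium, all 9 passed the threshold, where 59.8% of 19082 genes did. Of the 9, 7 were higher in cDC1s (30.4% of all genes) and 2 lower (29.4%). Rbpj was 4.40-fold higher in cDC1s (389 to 475 CPM, median 407) than in cDC2s (75.1 to 110 CPM, median 97.5), with a log2 difference of 2.14 ± 0.06 (adjusted p = 1.5e-20). Jag2 was 3.81-fold higher, with 102 to 135 CPM (median 110) in cDC1s against 26.9 to 35.0 CPM (median 30.4) in cDC2s (1.93 ± 0.04, adjusted p = 9.19e-26). Neither gene overlapped between the cell types. Notch1 was 2.01-fold higher (median 18.3 against 8.73 CPM, 1.00 ± 0.08, adjusted p = 6.38e-12) and Notch4 12.7-fold higher (median 3.05 against 0.19 CPM, 3.67 ± 0.23, adjusted p = 7e-15).

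The other genes that were higher in cDC1s were Hes1 (1.66 ± 0.24 on the log2 scale, adjusted p = 3.63e-07), Dll1 (1.80 ± 0.33, adjusted p = 1.59e-05, with overlapping ranges) and Jag1 (0.49 ± 0.12, adjusted p = 0.00213, also overlapping). These differences are over all media, and for Jag1 the means with WT medium were close (11.98 ± 0.50 CPM in cDC1s and 11.9 ± 2.60 CPM in cDC2s), the cell types lying apart with BimS (48.7 ± 1.85 and 32.9 ± 6.66 CPM) and RIPK3 debris (43.96 ± 2.45 and 24.1 ± 2.77 CPM). Dll4 was the ligand with the opposite preference. It ranged from 0.05 to 0.55 CPM (median 0.13) in cDC1s and from 0.88 to 1.58 CPM (median 1.32) in cDC2s, without overlap (log2 difference -2.82 ± 0.31, adjusted p = 2.33e-09). Notch2 was lower in cDC1s by a small margin (136 to 199 against 156 to 226 CPM, -0.18 ± 0.07, adjusted p = 0.0218). With WT medium its means were alike (195 ± 4.51 CPM in cDC1s and 195 ± 35.5 CPM in cDC2s), and those of cDC1s were lower with BimS (164 ± 8.66 against 202 ± 16.2 CPM) and RIPK3 debris (154 ± 15.9 against 185 ± 2.27 CPM). The Notch2 call was lost without cDC2 WT replicate 1, cDC1 BimS replicate 1, cDC2 BimS replicate 1 or cDC2 RIPK3 replicate 1 (adjusted p from 0.0508 to 0.0642). The sign of the Notch2 difference turned, to 0.01, with limma on log2(count + 1) without normalization. In all, 6 of the 9 genes did not overlap between cell types, as was true of 29.4% of all genes.

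**Figure D4:**
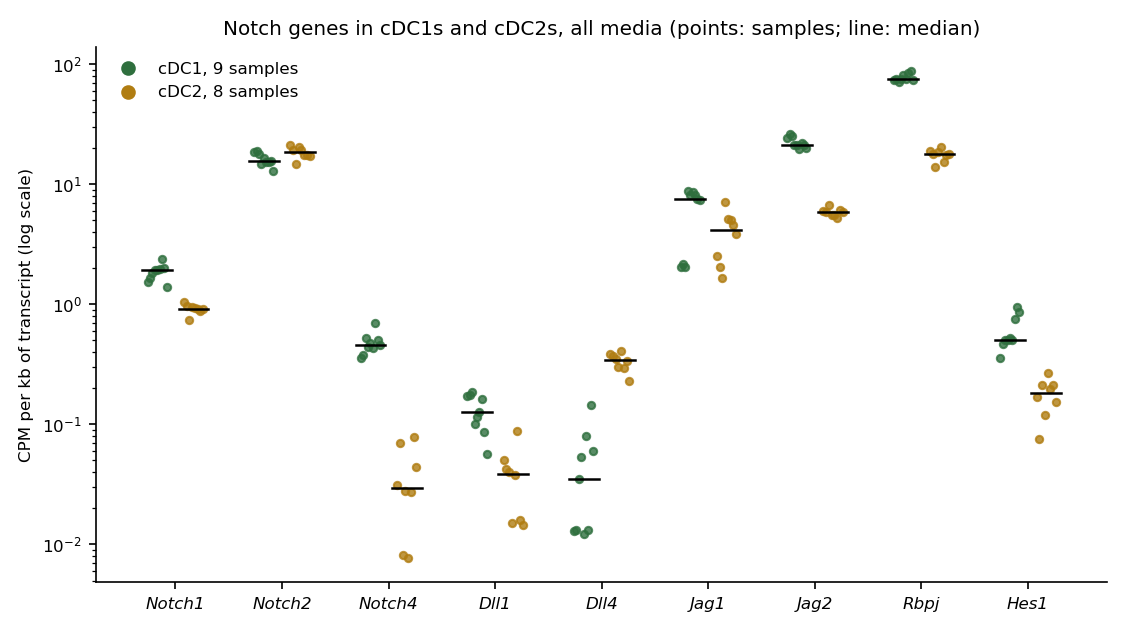
Level per kb of canonical transcript (CPM per kb, log scale) of the 9 Notch genes in the 9 cDC1 samples (green) and the 8 cDC2 samples (ochre) over all media, with medians as lines. Rbpj is the highest in cDC1s, where Notch4, Dll1, Dll4 and Hes1 are below 1 CPM per kb, and Dll4 is the gene with the clearest preference for cDC2s.

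Per kb of transcript, the order in cDC1s with WT medium was Rbpj (73.8 ± 2.21 CPM per kb), Jag2 (25.2 ± 0.84), Notch2 (18.5 ± 0.43), Jag1 (2.09 ± 0.09), Notch1 (1.68 ± 0.15), Hes1 (0.44 ± 0.07), Notch4 (0.42 ± 0.09), Dll1 (0.18 ± 0.01) and Dll4 (0.02 ± 0.01). Only Hes1 and Notch4 lay within their spread of each other. In cDC2s with WT medium it was Notch2 (18.4 ± 3.36), Rbpj (16.9 ± 2.76), Jag2 (6.21 ± 0.49), Jag1 (2.08 ± 0.45), Notch1 (0.92 ± 0.16), Dll4 (0.37 ± 0.02) and Hes1 (0.15 ± 0.07), followed by Dll1 (0.04 ± 0.01) and Notch4 (0.04 ± 0.03). Here Notch2 and Rbpj, as well as Dll1 and Notch4, did not differ beyond their spread. With debris, Jag1 remained between Notch2 and Notch1 in cDC1s, at 8.48 ± 0.32 (BimS) and 7.65 ± 0.43 CPM per kb (RIPK3).

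The levels of other genes that handle Notch receptors and ligands were examined in 6 lists with 67 genes in total. In cDC1s, 62 were tested, of which 7 rose and 10 fell with BimS debris (27.4%, beside 13.2% of all genes) and 8 rose and 10 fell with RIPK3 debris (29%, beside 16.5%). The median log2 fold change of the tested pathway genes was -0.03 with BimS and -0.01 with RIPK3 debris, against 0.00 and -0.01 over all genes. In cDC2s, 6 of 64 rose and 4 fell with BimS as well as with RIPK3 debris (15.6% each, beside 7.01% and 7.21%), with medians of 0.04 and 0.05 against -0.02 over all genes. With limma on log2(count + 1) without normalization the split changed to 3 higher and 9 lower (BimS) and 3 higher and 11 lower (RIPK3) in cDC1s and to 2 higher and 9 lower with RIPK3 debris in cDC2s, whereas with RLE size factors it was 7 and 10, 8 and 10, and 7 and 4. With the replicate block, 20 rose and 8 fell in cDC2s with BimS debris (beside 21.3% of all genes) and 14 rose and 11 fell with RIPK3 debris (beside 21.4%). Between RIPK3 and BimS debris, 2 rose and 2 fell in cDC1s (6.45%, beside 4.15% of all genes), and 0 rose and 3 fell with that limma fit. In cDC2s 0 of 64 passed there with edgeR or DESeq2, 9 had an unadjusted p under the threshold, and 8 rose and 11 fell with the block (14.3% of all genes).

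Nuclear co-repressors and co-activators linked to the pathway, not all of them direct partners of RBPJ, were represented by 18 genes. In cDC1s 1 rose and 2 fell with BimS debris (16.7%, beside 13.2% of all genes). With RIPK3 debris 3 rose and 2 fell there (27.8%, beside 16.5%). In cDC2s edgeR called 0 of 18 for either debris, beside 7.01% (BimS) and 7.21% (RIPK3) of all genes. There 3 with BimS and 2 with RIPK3 debris had an unadjusted p under the threshold, and DESeq2 called 1 and 0. Tle3, a Groucho-family co-repressor, was 348 to 363 CPM in cDC1s with WT medium, 243 to 257 CPM with BimS debris and 187 to 218 CPM with RIPK3 debris. The 3 groups did not overlap, and Tle3 fell by 0.52 ± 0.05 with BimS (adjusted p = 6.86e-10), by 0.78 ± 0.05 with RIPK3 debris (adjusted p = 1.87e-14) and by 0.26 ± 0.05 from BimS to RIPK3 debris (adjusted p = 0.00135). In cDC2s Tle3 was 195 to 234 CPM in all groups. Its responses differed between cDC1s and cDC2s, by -0.48 ± 0.10 for BimS (adjusted p = 0.0077) and by -0.72 ± 0.10 for RIPK3 debris (adjusted p = 1.13e-04). Spen, another co-repressor, was 305 to 313 CPM in cDC1s with WT medium and 392 to 474 CPM with BimS debris (0.53 ± 0.13, adjusted p = 0.0363), a call that held in 3 of the 9 fits without a single sample. Cir1, a co-repressor that binds RBPJ, rose in cDC1s from BimS to RIPK3 debris (41.8 to 43.3 CPM against 49.3 to 58.6 CPM, 0.34 ± 0.06, adjusted p = 8.72e-04).

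Of 15 genes for the glycosylation and cleavage of the receptors, 2 rose and 2 fell in cDC1s with BimS debris (26.7%, beside 13.2% of all genes). With RIPK3 debris 1 rose and 3 fell there (26.7%, beside 16.5%). In cDC2s 1 rose with BimS debris (6.67%, beside 7.01%), and 1 rose and 1 fell with RIPK3 debris (13.3%, beside 7.21%). Lfng, a Fringe enzyme that elongates sugars on Notch and alters which ligands it answers to, was 199 to 208 CPM in cDC1s with WT medium, 161 to 162 CPM with BimS and 139 to 154 CPM with RIPK3 debris. It fell by 0.33 ± 0.05 (adjusted p = 4.71e-06) and by 0.48 ± 0.05 (adjusted p = 1.42e-09). In cDC2s Lfng was 153 to 166 CPM with WT medium and 155 to 166 CPM with BimS debris, and the response to BimS differed from that of cDC1s by -0.36 ± 0.09 (adjusted p = 0.0483), a call that held in 6 of the 17 fits without a single sample. With RIPK3 debris Lfng was 124 to 140 CPM in cDC2s, below the WT samples, at -0.26 ± 0.09 (unadjusted p = 0.00794, adjusted p = 0.087). Groups without overlap were found for 34.1% of all genes in that comparison. Poglut1, which adds O-glucose to the receptors, fell in cDC1s with BimS (0.50 ± 0.09, adjusted p = 7.55e-05) and RIPK3 debris (0.42 ± 0.09, adjusted p = 5.03e-04), and in cDC2s with RIPK3 debris (0.58 ± 0.13, adjusted p = 0.00526). Adam10, the protease of the first cut, was 105 to 131 CPM in cDC2s with WT medium and 139 to 160 CPM with BimS debris (0.33 ± 0.09, adjusted p = 0.0337), which held in 2 of the 8 fits without a single sample. In cDC1s Adam10 rose by 0.17 ± 0.05 with BimS debris (adjusted p = 0.0186). Aph1c, a γ-secretase subunit, rose in cDC2s with RIPK3 debris (6.96 to 9.06 CPM with WT medium, 12.0 to 13.5 CPM with RIPK3 debris, 0.69 ± 0.15, adjusted p = 0.00494). It was 27.0 to 32.0 CPM in all cDC1 groups, and the response differed between cell types (-0.77 ± 0.15, adjusted p = 0.00493).

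The 13 genes that move or degrade ligands and receptors included the ubiquitin ligases of the Deltex and Neuralized families. In cDC1s 2 rose and 3 fell with either debris (38.5% each, beside 13.2% of all genes with BimS and 16.5% with RIPK3). In cDC2s 4 fell with BimS debris (30.8%, beside 7.01%), and 1 rose and 2 fell with RIPK3 debris (23.1%, beside 7.21%). Dtx3l, a Deltex relative, was 219 to 248 CPM in cDC1s with WT medium, 154 to 182 CPM with BimS and 128 to 159 CPM with RIPK3 debris, a fall of 0.46 ± 0.09 (adjusted p = 0.00308) and of 0.74 ± 0.09 (adjusted p = 5.97e-05). In cDC2s Dtx3l fell by 0.62 ± 0.13 (adjusted p = 0.0101) and 0.96 ± 0.15 (adjusted p = 0.00113). Neurl1b, a Neuralized ligase of Notch ligands, fell in cDC1s from 5.49 to 8.00 CPM with WT medium to 3.93 to 4.43 CPM with BimS and 2.36 to 2.78 CPM with RIPK3 debris. Neurl3 fell in cDC1s with BimS (0.50 ± 0.05, adjusted p = 2.58e-09) and RIPK3 debris (0.46 ± 0.05, adjusted p = 1.39e-08), and in cDC2s with either debris by 0.38 (adjusted p of 0.0194 and 0.0397). Numbl, a relative of the Notch antagonist Numb, rose in cDC1s with BimS (0.39 ± 0.09, adjusted p = 0.00149) and RIPK3 debris (0.60 ± 0.09, adjusted p = 2.27e-06), and in cDC2s with RIPK3 debris (0.66 ± 0.11, adjusted p = 4.47e-04).

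**Figure D5:**
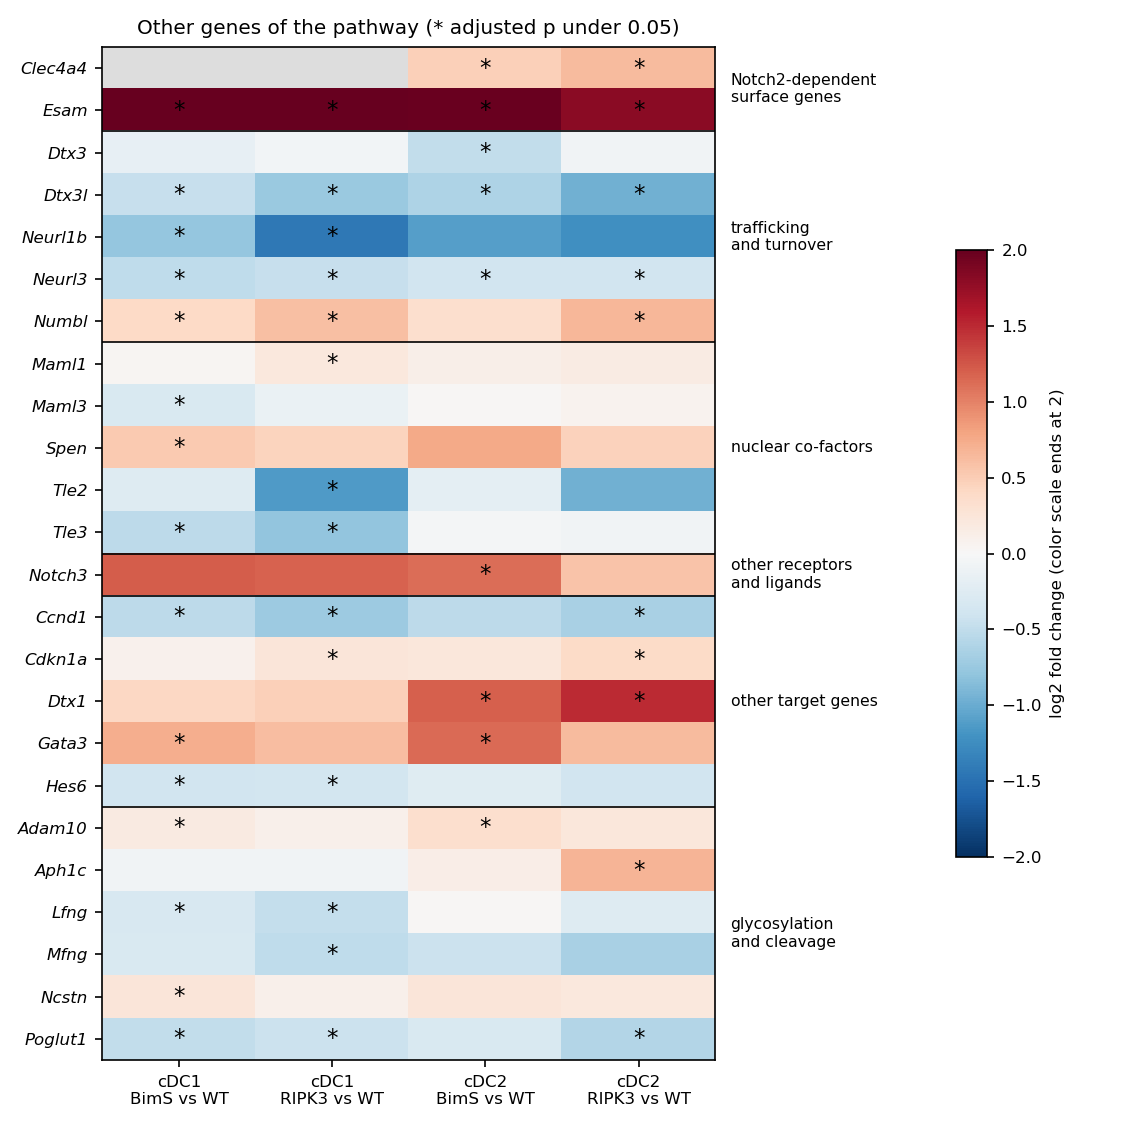
Log2 fold changes against WT medium (color, scale ending at 2) of the pathway genes named by rule, in rows grouped by role, for the 4 comparisons in columns, with asterisks for an adjusted p under 0.05 and gray where a gene was not tested. Tle3 and Lfng carry asterisks in the cDC1 columns, Dtx1 in the cDC2 columns, and Esam and Dtx3l in all 4 columns.

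Of the other targets, some rose and some fell. Of 14 listed, 13 were tested in cDC1s, where 1 rose and 3 fell with BimS debris (30.8%, beside 13.2% of all genes). With RIPK3 debris 1 rose and 2 fell there (23.1%, beside 16.5%). In cDC2s 12 were tested, of which 2 rose with BimS debris (16.7%, beside 7.01%). With RIPK3 debris 2 rose and 1 fell there (25%, beside 7.21%). Among the HES and HEY repressors and the feedback inhibitor Nrarp, the genes Hes5, Hey1, Heyl and Nrarp were below 0.4 CPM in all 17 samples. Hes7 was 0.86 to 1.03 CPM in cDC1s with WT medium, 0.23 to 0.52 CPM with BimS (-1.18 ± 0.37, adjusted p = 0.0273) and 0.40 to 0.60 CPM with RIPK3 debris (-0.95 ± 0.36, adjusted p = 0.0736). Hey2 was at most 0.72 CPM, and it did not pass between media in either cell type. Dtx1, a Deltex ligase and Notch target, rose in cDC2s from 2.18 to 3.89 CPM with WT medium to 5.78 to 7.64 CPM with BimS (1.19 ± 0.19, adjusted p = 3.07e-04) and 8.41 to 8.97 CPM with RIPK3 debris (1.49 ± 0.20, adjusted p = 5.07e-05), and it was at most 0.15 CPM in cDC1s. Ccnd1, which encodes cyclin D1, fell in cDC1s from 26.5 to 30.0 CPM with WT medium to 17.9 to 20.7 CPM with BimS (adjusted p = 6.41e-06) and 16.1 to 17.7 CPM with RIPK3 debris (adjusted p = 1.02e-08). Hes6, a relative of Hes1, fell in cDC1s with BimS (0.38 ± 0.09, adjusted p = 0.00188) and RIPK3 debris (0.37 ± 0.09, adjusted p = 0.00194). Cdkn1a, encoding the cell cycle inhibitor p21, rose with RIPK3 debris in cDC1s (0.24 ± 0.05, adjusted p = 1.09e-04) and cDC2s (0.38 ± 0.08, adjusted p = 0.00577). Gata3 rose with BimS debris in cDC1s (0.73 ± 0.22, adjusted p = 0.0297, overlapping groups) and cDC2s (1.13 ± 0.32, adjusted p = 0.0341). These calls held in 6 of 9 and 3 of 8 fits without a single sample.

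The surface genes Esam and Clec4a4, which in the spleen mark the cDC2s that need Notch2, were higher in cDC2s with debris. Esam was 0.46 to 0.63 CPM with WT medium, 1.64 to 2.80 CPM with BimS debris (1.98 ± 0.30, adjusted p = 2.21e-04) and 1.81 to 2.17 CPM with RIPK3 debris (1.81 ± 0.34, adjusted p = 0.0015). In cDC1s it rose as well, from 0.15 to 0.36 CPM with WT medium to 0.98 to 1.17 CPM with BimS and 0.90 to 1.87 CPM with RIPK3 debris. Clec4a4, encoding the lectin DCIR2, was 8.57 to 10.6 CPM in cDC2s with WT medium, 11.3 to 16.8 CPM with BimS (0.48 ± 0.14, adjusted p = 0.045, held in 2 of the 8 fits without a single sample) and 15.1 to 15.9 CPM with RIPK3 debris (0.63 ± 0.16, adjusted p = 0.014), and in cDC1s it was at most 0.15 CPM. The fourth mammalian receptor gene, Notch3, was 0.46 to 1.03 CPM in cDC2s with WT medium and 1.46 to 1.73 CPM with BimS debris (1.11 ± 0.32, adjusted p = 0.0389), a call that held in 1 of the 8 fits without a single sample.

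Markers of other cells were read beside these results. Of the epithelial markers, taken as a sign of TC-1 material, edgeR called 0 of 6 tested in cDC1s and 0 of 4 in cDC2s with either debris (in cDC1s 0 at an unadjusted p under the threshold and 0 by DESeq2; in cDC2s with RIPK3 debris 1 and 1). Their sum was 2.52 to 2.84 CPM in cDC1s with WT medium, 1.78 to 3.09 CPM with BimS and 2.16 to 2.93 CPM with RIPK3 debris. In cDC2s the sum was at most 35.2 CPM with BimS and 25.3 CPM with RIPK3 debris and was not lower than 30.4 CPM with WT medium, nearly all of it from Cdh1, while Cldn4, Krt7 and Krt8 were at or near 0. Of the 8 endothelial markers 6 were tested and 0 rose against WT, while in cDC1s 1 fell with BimS and 2 fell with RIPK3 debris, and in cDC2s 1 fell with BimS debris. Their sum was 22.1 to 23.7 CPM in cDC1s with WT medium, 12.6 to 16.7 CPM with BimS and 13.6 to 17.3 CPM with RIPK3 debris. The sum was mostly Pecam1, which dendritic cells also express, at 16.7 to 18.9 CPM with WT medium, 9.22 to 11.8 CPM with BimS and 10.4 to 13.1 CPM with RIPK3 debris in cDC1s. Of the defining endothelial genes, Emcn was at 0 in all cDC1 samples, and Tek and Egfl7 were at most 0.26 CPM in all 17 samples. Cdh5 in cDC1s was 0.05 to 0.54 CPM with WT medium and 0.51 to 0.75 CPM with RIPK3 debris (unadjusted p = 0.0238, adjusted p = 0.11), and Tie1 was at most 0.05 and 0.25 CPM (adjusted p = 0.361). In cDC2s Cdh5 was 0.34 to 0.67 CPM with WT medium. With RIPK3 debris it was 0.97 CPM (15 reads) in replicate 1 and 0.06 CPM in replicate 2, and Tie1 was 0.32 and 0 CPM. Of the 9 cDC1 markers, 3 rose and 3 fell in cDC1s with each debris, Irf8 from 279 to 334 CPM with WT medium to 177 to 194 CPM with BimS, and of the 6 cDC2 markers 1 fell in cDC2s with BimS and 3 fell with RIPK3 debris, Irf4 from 35.1 to 39.1 CPM with WT medium to 15.0 to 19.5 CPM and 12.6 to 13.4 CPM. Of 8 mitochondrial genes tested, 6 rose with BimS and 2 with RIPK3 debris in cDC1s, where their sum was 6646 to 7425 CPM with WT medium, 8094 to 8188 CPM with BimS and 7722 to 8096 CPM with RIPK3 debris. In cDC2s 2 rose with BimS debris (sum of 4305 to 4876 CPM with WT medium, 5335 to 5540 CPM with BimS). Of the T and NK cell markers 1 rose in cDC1s and 1 fell in cDC2s with BimS debris, with sums of at most 3.08 CPM in all samples. Of the markers of plasmacytoid dendritic cells 1 fell in cDC1s with each debris. Over all media their sum was 34.9 to 47.7 CPM in cDC1s and 159 to 191 CPM in cDC2s. Macrophage markers summed to 5.34 to 9.79 CPM in cDC1s with WT medium, 3.6 to 4.69 CPM with BimS and 4.12 to 7.25 CPM with RIPK3 debris. In cDC2s the macrophage sum was 8.47 to 15.6 CPM with WT medium, 7.85 to 9.46 CPM with BimS and 9.25 to 13.6 CPM with RIPK3 debris. B cell, stromal and melanoma markers summed to at most 1.49 CPM in any sample. The part of these genes in the Notch results was not tested.

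The genes whose log2 levels followed each member most closely were sought among 11593 genes over the 17 samples, for the 6 members with a mean of at least 1 CPM. Jag1 was close to Stk10 (Pearson r = 0.978), a kinase of lymphoid cells, with a mean r of 0.971 within the cell types. Notch2 was nearest to Secisbp2l (r = 0.934) and Zfp609 (r = 0.929), with 0.97 and 0.91 within cell types. For the other 4 members r was lower within cell types than over all samples. For Rbpj they were Gna13 (0.998, and 0.856 within) and Cdk14 (0.997, and 0.704), for Jag2 Txndc15 (0.997, and 0.839), for Notch1 Capn7 (0.975, and 0.817) and Arid3a (0.971, and 0.841), and for Notch4 Cntrob (0.984, and 0.689) and Slc26a11 (0.984, and 0.520). All points share the same 17 libraries, and these likenesses are descriptions only.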

How the data were processed

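The counts analysed are the raw values that the authors deposited. Per the study's methods, reads were trimmed (SeqPurge), aligned to GRCm39 (STAR 2.7.10a) and assigned to Ensembl genes (gensum). A deposited table of log2 normalized values was not used. The 148 of 31239 lines lacking an identifier (0.0258% to 0.0366% of a sample's counts) were dropped. Positions and lengths came from GENCODE M39, which matched 30854 of 31091 identifiers.

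Testing used edgeR 4.0.16 under R 4.3.3 (quasi-likelihood, robust, TMM), for genes detected in 50% or more of the samples fitted. The 9 cDC1 and 8 cDC2 samples had separate fits, and a joint fit served the comparison of cell types (medium as covariate) and the interactions. Benjamini-Hochberg adjustment covered all genes tested, with a threshold of 0.05, and ± beside a log2 fold change is its SE. Alternatives were DESeq2 1.42.0, limma 3.58.1 on log2(count + 1), RLE scaling, other filters, a replicate block and leaving out each sample.

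The members and lists were chosen with earlier results of these data known. All 9 members were named in each comparison. The rule for pathway genes took, per list and comparison, up to 3 called genes with a mean of at least 1 CPM by size of change, and for similar genes the 2 with the highest correlation, of which some are not reported here. Other pathway values (Hes5, Hes7, Hey1, Hey2, Heyl, Nrarp, Esam in cDC1s, and further calls of genes so named) were added after they were seen. Same-numbered cDC2 samples deviated together (all 7 pairs with a correlation over 0.1, lowest 0.119). In cDC1s 8 of 9 same-numbered pairs were over 0.1, and the lowest was 0.0996. Differently numbered cDC1 samples reached at most 0.0417, so same-numbered cDC1 samples deviated together as well. By the threshold of 0.1 the block is given beside cDC2 results, and for cDC1s in the last section only. Few reads limit the precision of Dll1, Dll4, Hes1 and, in cDC2s, Notch4.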

Additional observations from a re-analysis of the deposited data

Results flagged for a closer look

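The responses of 4 genes differed between cDC1s and cDC2s by the interaction term of edgeR. For Jag1 the difference of the log2 fold changes (cDC1 minus cDC2) was 0.87 with RIPK3 debris. Tle3 had values of -0.48 with BimS and -0.72 with RIPK3 debris. Lfng had a value of -0.36 with BimS debris, and Aph1c had -0.77 with RIPK3 debris. Both calls for Tle3 held in all 17 fits that left out a single sample, that for Aph1c in 16 (lost without cDC2 RIPK3 replicate 2), that for Jag1 in 8 and that for Lfng in 6. With limma on log2(count + 1) without normalization, 0 of 63 pathway genes passed for either interaction, while Jag1 passed for RIPK3 debris and not for BimS debris.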

How the results depend on the processing

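Over 90 results of the 9 genes and 1598 alternative values, 1 called value changed sign: Notch2 between cDC1s and cDC2s went to 0.014 with limma on log2(count + 1) without normalization, which also moved the median of all genes there by over 0.1. A further 42 sign changes concerned values called in neither fit. RLE size factors changed no call of a member, nor did filterByExpr where it kept the gene. DESeq2 lost 2 calls (Rbpj and Hes1, cDC1 RIPK3 against WT), limma lost the same 2 and Notch2 (cDC1 BimS against WT) besides the reversal, and no filter gained 2 (Jag1, cDC2 RIPK3 against BimS and the BimS interaction). The replicate block gained 6, of which 5 are given with the cDC2 results and the other is the BimS interaction of Jag1 (0.56, adjusted p = 0.0157).

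The number of genes called over the whole table moved more. With limma it was 1510 for BimS against WT and 403 for RIPK3 against BimS in cDC1s, 148 for RIPK3 against BimS in cDC2s, and 67, 109 and 3 for the interactions (BimS, RIPK3, RIPK3 against BimS). DESeq2 gave 141 for RIPK3 against BimS in cDC2s, and 261 and 19 for the BimS and the RIPK3 against BimS interactions. filterByExpr gave 46 and no filter 300 for RIPK3 against BimS in cDC2s, and no filter 315, 371 and 25 for the interactions. With the replicate block it was 1730 for RIPK3 against BimS in cDC1s, 4103, 4126 and 2755 in cDC2s (BimS, RIPK3, RIPK3 against BimS) and 443, 449 and 27 for the interactions. The block changed no call of a member in cDC1s, where pathway genes called numbered 9 higher and 14 lower with BimS (beside 17.9% of all genes) and 3 higher and 4 lower for RIPK3 against BimS (beside 8.87%). The cause of these shifts was not tested.

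Leaving out each sample in turn gave 489 to 1027 genes for RIPK3 against BimS in cDC1s (lowest without BimS replicate 3), 783 to 1504, 622 to 1819 and 0 to 214 in cDC2s (lowest without WT replicate 2, RIPK3 replicate 2 and RIPK3 replicate 2), and 93 to 234, 111 to 258 and 0 to 10 for the interactions. In cDC1s, with 8 of 9 pairs over 0.1 and the lowest at 0.0996, the replicate numbers were not taken as pairs. This cutoff, narrowly missed, does not show that the cDC1 samples were unpaired.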
